A study of Mus musculus with 6 samples.

Results

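The genes described here are 10 muscle genes whose products sense or answer stretch of the heart muscle cell, *Ankrd1*, *Ankrd2*, *Ankrd23*, *Csrp3*, *Xirp1*, *Xirp2*, *Fhl1*, *Fhl2*, *Rcan1* and *Myocd*. They were taken by symbol as a list chosen with earlier results of these data known, and all 10 were found among the 54232 genes of the count tables. Heart ventricle RNA was sequenced from 3 mice on western diet (WD) that received Tributyrin, a glycerol ester of butyrate, and from 3 mice on WD that received vehicle, which the sample labels call PBS. All 6 mice were wild-type (WT) C57BL/6J and had been on WD for 15 weeks. Tributyrin, at 5 g per kg, or vehicle was then given by needle-feeding over 3 weeks. Mice on normal chow were not analysed here, so the values compare the treatments within WD only. The age of the mice and the number of litters or cages are not in the sample labels. Each library is a separate mouse by its label, and whether any of them shared a litter is not given, so the p-values measure the spread between these 6 libraries.

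Cardiomyocytes read mechanical load at the Z-disc and along titin, the giant spring protein of the sarcomere. The muscle ankyrin repeat proteins (*Ankrd1*, *Ankrd2* and *Ankrd23*) bind titin's spring region and also enter the nucleus, where they act as transcriptional cofactors. *Ankrd1* is widely used as a marker of ventricular wall stress. *Csrp3* encodes muscle LIM protein, a Z-disc adaptor, and *Fhl1* and *Fhl2* encode LIM proteins that bind titin and restrain or relay growth signals. *Xirp1* and *Xirp2* encode the Xin proteins, which bind actin at intercalated discs and sites of repair. *Rcan1* encodes a regulator of the phosphatase calcineurin and is itself a target of the calcineurin-NFAT pathway. *Myocd* encodes myocardin, the muscle coactivator of serum response factor (SRF). Butyrate, which is released from Tributyrin, inhibits histone deacetylases.

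RefSeq promoter entries were found for 8 of the 10 genes, with 13 annotated starts among them. The 250 bases before the start are shown 5′ to 3′ for the genes on which the results turn: *Ankrd1*, which had the smallest p among the members, its nearly silent family member *Ankrd2*, the most abundant member *Fhl2* at both of its starts, and the internal start of *Rcan1*. They lie at chr19:36119845-36120094 (minus strand) for *Ankrd1*, chr19:42035777-42036026 (plus) for *Ankrd2*, chr1:43196762-43197011 and chr1:43163962-43164211 (minus) for *Fhl2* and chr16:92400079-92400328 (minus) for *Rcan1*, all on GRCm38.p6. Capitals mark the motifs searched on both strands.
Ankrd1: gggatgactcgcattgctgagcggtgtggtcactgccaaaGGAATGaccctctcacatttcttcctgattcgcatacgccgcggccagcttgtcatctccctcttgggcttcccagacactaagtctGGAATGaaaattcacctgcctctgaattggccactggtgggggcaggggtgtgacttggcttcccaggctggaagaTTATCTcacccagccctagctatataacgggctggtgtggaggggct
Ankrd2: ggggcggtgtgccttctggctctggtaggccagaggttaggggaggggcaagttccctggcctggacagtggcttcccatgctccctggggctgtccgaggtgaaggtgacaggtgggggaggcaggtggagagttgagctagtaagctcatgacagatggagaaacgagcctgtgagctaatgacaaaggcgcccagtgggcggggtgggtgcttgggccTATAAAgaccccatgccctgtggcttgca
Fhl2, upstream start: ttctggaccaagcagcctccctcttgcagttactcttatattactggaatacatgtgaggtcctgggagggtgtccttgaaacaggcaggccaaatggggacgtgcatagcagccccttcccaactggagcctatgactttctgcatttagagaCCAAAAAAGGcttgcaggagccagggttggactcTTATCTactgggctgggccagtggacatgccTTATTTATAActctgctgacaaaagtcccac
Fhl2, downstream start: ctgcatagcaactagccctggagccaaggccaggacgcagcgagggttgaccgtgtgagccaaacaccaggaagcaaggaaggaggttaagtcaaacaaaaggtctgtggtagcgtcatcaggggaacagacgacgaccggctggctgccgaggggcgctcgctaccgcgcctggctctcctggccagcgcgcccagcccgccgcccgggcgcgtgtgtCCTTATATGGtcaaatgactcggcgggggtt
Rcan1, internal start: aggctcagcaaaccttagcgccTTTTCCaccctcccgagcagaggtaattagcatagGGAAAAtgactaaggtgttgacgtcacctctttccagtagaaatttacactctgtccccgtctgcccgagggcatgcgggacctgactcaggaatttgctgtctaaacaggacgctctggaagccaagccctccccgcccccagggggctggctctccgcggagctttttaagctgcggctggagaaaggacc

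The *Ankrd1* window held the M-CAT element CATTCC, the core bound by TEAD factors, on the opposite strand at bases 210 to 205 and again at bases 123 to 118 before the start, and the GATA core AGATAA, also on the opposite strand, at bases 47 to 42. Of all 32851 promoter windows of the same length, 12.6% held the M-CAT element and 9.99% the GATA core. *Ankrd2* held the TATA box TATAAA at bases 29 to 24 (12.4% of all windows) and no other motif searched. Both *Fhl2* windows held a CArG box, the SRF binding sequence, at bases 96 to 87 of the upstream start and at bases 31 to 22 of the downstream start, against 1.47% of all windows. The upstream *Fhl2* window also held a GATA core on the opposite strand at bases 62 to 57 and a MEF2 site (2.92% of all windows) at bases 31 to 22 that overlaps a TATA box on the opposite strand. The internal *Rcan1* window held the NFAT core GGAAAA on the opposite strand at bases 228 to 223 and on the gene's strand at bases 193 to 188 (20.4% of all windows). Of the 13 windows, 3 held a CArG box, 2 an M-CAT element, 3 the NFAT core, 3 the GATA core, 3 a TATA box and 2 a MEF2 site. These are matches of letters and no binding was measured.

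The libraries held between 20369746 and 32734485 counts on genes, so counting error was small for 9 of the members and large for *Ankrd2*. Mitochondrial transcripts took 23.6% to 26.5% of the counts with vehicle and 25.9% to 28.8% with Tributyrin. The Y-linked gene *Ddx3y* had at least 1802 normalized counts in every library and *Xist* at most 6.24. The 9 ventricular cardiomyocyte markers, *Myl2* and *Myh6* among them, summed to between 67681 and 71611 CPM (counts scaled by TMM-adjusted library totals) in the 6 libraries. Of the 9 markers, *Tnnt2*, *Tnni3* and *Pln* were higher and *Actc1* lower with Tributyrin at an unadjusted p under 0.05. Of all genes tested, 1.97% were higher and 2.28% lower at this p. For 2 of the markers, *Tnni3* and *Pln*, the groups did not overlap, with Tributyrin higher, as for 4.26% of all genes tested. Of 10 skeletal muscle markers, 7 were too low to be tested and *Myog* and *Tnnc2* had 0 counts. Atrial markers differed between libraries: their summed level ran from 66.0 to 200.6 CPM with vehicle and from 33.6 to 68.9 CPM with Tributyrin. In the vehicle mice *Myl4* reached 2247 normalized counts, *Myl7* 1746, *Sln* 327 and *Mybphl* 184, and *Bmp10* at most 1.04.

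Levels between genes were compared per length, as RPKM, CPM divided by the exonic length in kilobases, over the 6 libraries. *Fhl2* was highest, at 1032 RPKM ± 112 (SD, n = 6), and lay above *Csrp3* in every library without overlap. *Csrp3* followed with 397 ± 25.7, then *Ankrd1* with 257 ± 78.4. *Csrp3* exceeded *Ankrd1* in 6 of 6 libraries, although their ranges over all libraries overlapped. *Fhl1* (49.8 ± 3.13), *Xirp2* (47.8 ± 5.90) and *Xirp1* (41.1 ± 2.31) formed a middle group. In it *Fhl1* lay above *Xirp2* in 4 of 6 libraries, so *Fhl1* and *Xirp2* did not differ beyond their spread. *Xirp2* lay above *Xirp1* in 6 of 6 libraries, although their ranges over all libraries overlapped. *Rcan1* was at 24.5 ± 2.39. *Myocd* (8.66 ± 1.34) and *Ankrd23* (8.59 ± 2.13) could not be ordered, as *Myocd* was higher in 2 of 6 libraries. *Ankrd2* was at 0.177 ± 0.0997, with 2 to 12 reads in a library, and its mean level was 1457 times lower than that of *Ankrd1*. *Ankrd2* is best known from slow skeletal muscle. Of the 10 skeletal muscle markers listed, *Tnni2* (0.891 RPKM), *Mylpf* (0.562) and *Pvalb* (0.515) lay above it. The 7 others lay below it, from *Tnnt3* (0.127) down to *Myog* and *Tnnc2* (0).

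**Figure D1:**
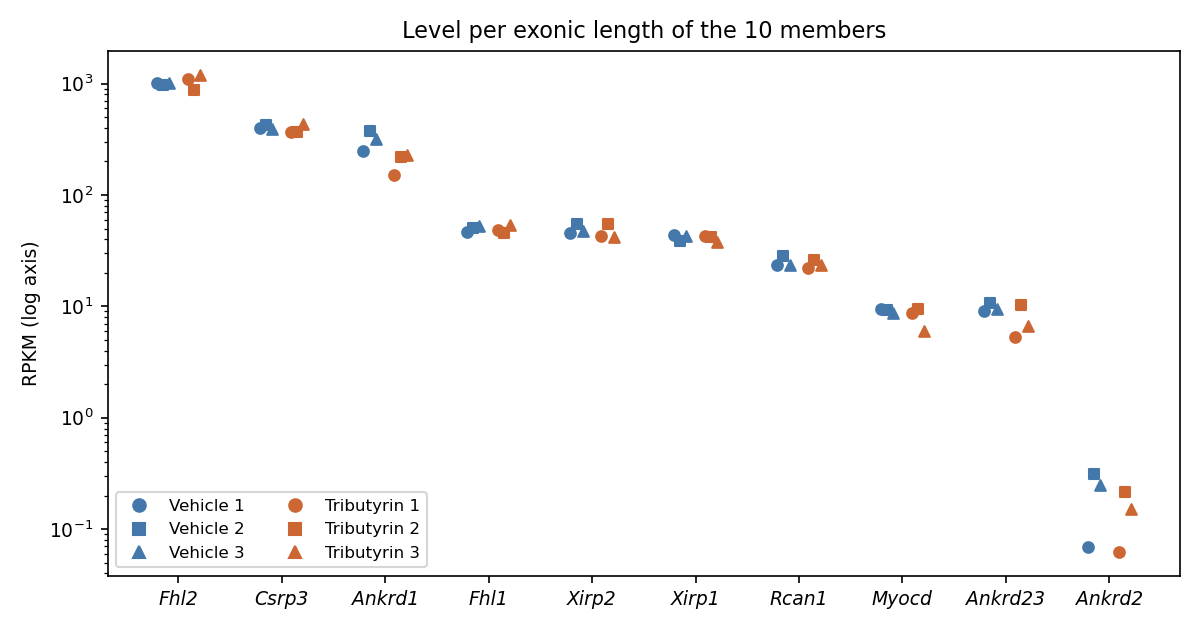
Level of the 10 genes in each mouse, as RPKM on a log axis, ordered by mean. Blue points are the 3 vehicle mice and orange points the 3 Tributyrin mice. *Fhl2* is highest, at 1032 RPKM on average, and *Ankrd2* lowest, at 0.177 RPKM.

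The levels of *Ankrd23* depend on how shared bases were counted. In GENCODE M21, 2109 of its 2697 exonic bases are also exonic in *Gm42417*, a gene on the same strand that had 0 counts in every library. How the counting treated reads on shared bases is not given in the sources used here. If the reads came only from the 588 bases that are not shared, the level would be 39.4 RPKM instead of 8.59, which would place *Ankrd23* beside *Xirp1*. No other member shares exonic bases on its own strand, and the antisense gene that overlaps *Xirp2* had at most 1 count.

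The comparison of Tributyrin with vehicle asked whether treatment moved these genes in the WD heart. Of the 10 genes, 9 passed the filter on low counts and *Ankrd2* did not. As the list was chosen with earlier results of these data known, its counts beside those of all genes are descriptions. In edgeR's quasi-likelihood test, adjusted after Benjamini-Hochberg over the 14133 genes tested, 0 of the 9 passed an FDR of 10% or of 5%, as did 0% of all genes tested, and the smallest adjusted p of any gene was 0.999. At an unadjusted p under 0.05 there was 1 of the 9, *Ankrd1*, against 4.25% of all genes tested. It was lower with Tributyrin, as were 2.28% of all genes at this p, and 0 of the members were higher at this p, against 1.97% of all genes. DESeq2 (11 genes called of all) and limma-voom (0 called) also gave 0 of the members at 10%, and each gave 2 members at an unadjusted p under 0.05, *Ankrd1* and *Ankrd23*, where 1.8% of all genes were under 0.05 with DESeq2 and 4.28% with limma-voom. Without a filter on low counts edgeR's test gave 2 members at 10%, *Ankrd1* and *Ankrd23*, where 0.653% of the 25581 genes were called. The groups did not overlap in 1 of the 9, again *Ankrd1*, against 8.91% of all genes tested (4.65% lower and 4.26% higher with Tributyrin). The log2 fold change was above 0 for 1 of the 9 members, against 49.6% of all genes tested, and below 0 for 8. Its median over the members was -0.067, where the median over all genes tested was -0.0013. That shift was within the spread between mice, since the median deviation of the members from their vehicle means ran from -0.095 to 0.065 in the vehicle mice and from -0.14 to 0.0010 in the Tributyrin mice.

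**Figure D2:**
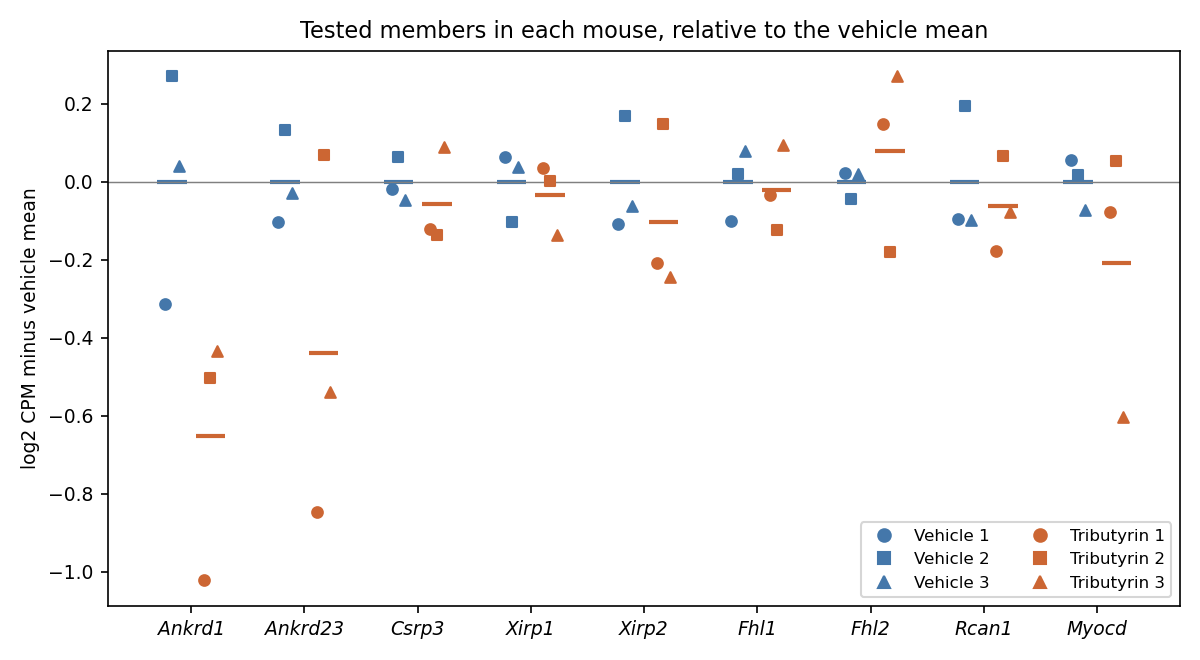
Log2 CPM of the 9 tested genes in each mouse minus the mean of the vehicle mice. Points are mice, by color and shape, and short lines are group means. With all 6 mice, *Ankrd1* is the only one of the 9 whose groups do not overlap, and *Ankrd23*, *Fhl2* and *Myocd* spread more among the Tributyrin mice than among the vehicle mice.

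*Ankrd1* (ENSMUSG00000024803, chr19:36111961-36120099 on GRCm38, minus strand, protein coding) had 18952, 28436 and 24162 normalized counts in the vehicle mice and 11566, 16539 and 17457 in the Tributyrin mice. Every Tributyrin mouse lay below every vehicle mouse, and tributyrin replicate 1 was lowest. The means were 23850 ± 4750 with vehicle and 15187 ± 3169 with Tributyrin (SD, n = 3), a difference of -8662 normalized counts with a standard error of 3297, or a 36.3% lower mean (p = 0.1 in a two-sided exact permutation test, which 3 mice against 3 cannot go below). The log2 fold change was -0.65 (standard error 0.167), a fold of 0.637 with a 95% interval from 0.493 to 0.824. In edgeR's model the unadjusted p was 0.0028, at rank 33 of the genes tested, and the adjusted p was 0.999. Counting error was at most 0.899% of a value, so nearly all of the spread, a coefficient of variation of 20.4% within groups, lay between libraries. Each library is from a separate mouse, so mouse and library preparation cannot be told apart. The within-group SD of its log2 CPM, 0.308, was larger than for 89.7% of the genes tested.

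The difference in *Ankrd1* was not carried by a single mouse. Over the 6 fits that each leave out 1 mouse, the log2 fold change lay between -0.79 (without vehicle replicate 1) and -0.48 (without tributyrin replicate 1), and the unadjusted p in edgeR's model between 0.000731 and 0.0159. Atrial transcripts differed between the groups in the same direction. Of the 7 atrial markers listed, 6 were tested and 6 had a log2 fold change below 0, with a median of -1.90. Lower at an unadjusted p under 0.05 were 5 of the 6, against 2.28% of all genes tested. *Myl7*, the atrial myosin light chain, had 1746, 1483 and 111 normalized counts in the vehicle mice and 194, 480 and 197 in the Tributyrin mice. In vehicle replicate 3, where *Ankrd1* was at 24162, *Myl7*, *Myl4* (246), *Sln* (6.21) and *Mybphl* (4.97) were the lowest of all 6 libraries, but *Nppa* (1046) was the highest and *Dkk3* (321) lay above every Tributyrin mouse. With vehicle replicates 1 and 2 left out, *Ankrd1* was at -0.67. That comparison was chosen after the data were seen and leaves a lone vehicle library assumed to vary like the others, and in it 46.3% of all genes did not overlap and 2.66% had an unadjusted p under 0.05, so it can separate little. The part of atrial transcripts in the difference of *Ankrd1* was not tested. In RNA from whole tissue, fewer cells of a type and less RNA per cell cannot be told apart.

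**Figure D3:**
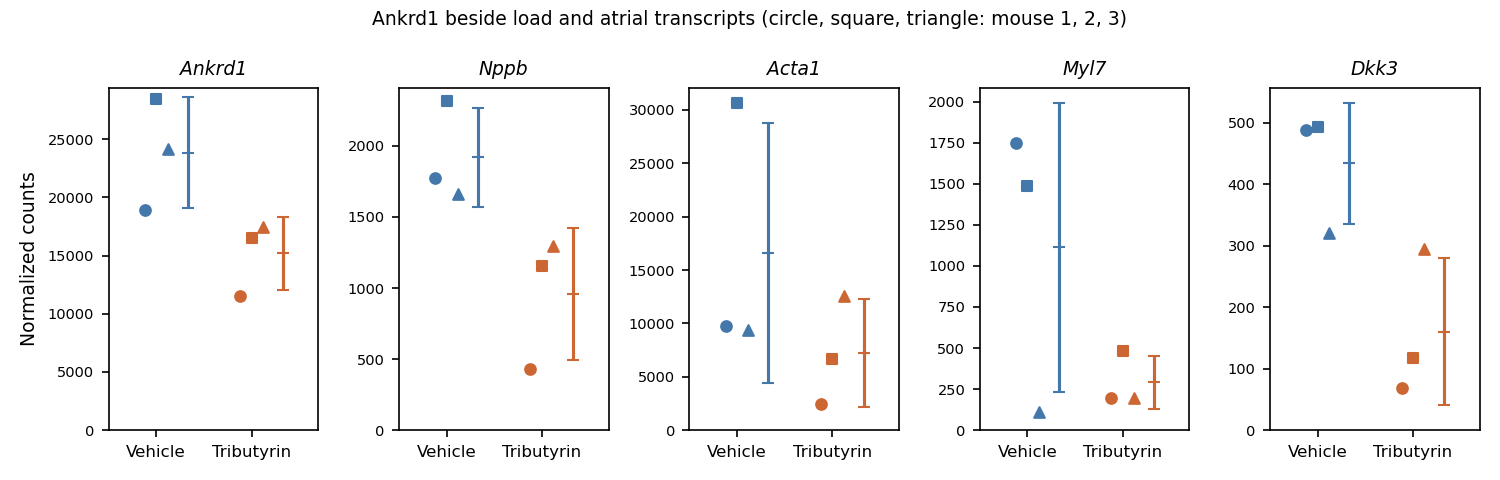
Normalized counts of *Ankrd1*, the load markers *Nppb* and *Acta1* and the atrial markers *Myl7* and *Dkk3* in each mouse, with the group mean and SD at the right of each group. Axes start at 0. The groups do not overlap for *Ankrd1*, *Nppb* and *Dkk3*, and for *Myl7* and *Acta1* they do. Vehicle replicate 3 (triangle) has 111 counts of *Myl7*, 321 of *Dkk3* and 24162 of *Ankrd1*.

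*Ankrd23* (chr1:36530188-36536883, minus strand) had 642, 760 and 676 normalized counts in the vehicle mice and 378, 724 and 473 in the Tributyrin mice. Tributyrin replicate 2 lay within the vehicle range and the other two Tributyrin mice below it. The log2 fold change was -0.40 (standard error 0.195), with a 95% interval of the fold from 0.562 to 1.02 and an unadjusted p of 0.0669 (edgeR). Without tributyrin replicate 2 it was -0.71, and without tributyrin replicate 1 it was -0.20. *Ankrd2* (chr19:42036000-42045110, plus strand) had 2.08, 9.30 and 7.45 normalized counts with vehicle and 1.87, 6.40 and 4.59 with Tributyrin, which overlap, and a difference was not detectable at this depth. Of the summed level per length of the ankyrin repeat genes, *Ankrd1* made up 96.9% ± 0.356 in the vehicle mice and 96.4% ± 0.860 in the Tributyrin mice (SD, n = 3, p = 0.6 by an exact permutation test). These shares take *Ankrd23* over all of its 2697 exonic bases, 2109 of which are shared with *Gm42417*. If its reads came only from unshared bases, *Ankrd23* would be at 39.4 RPKM instead of 8.59. The share of *Ankrd1* would then be lower.

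Among the LIM genes the groups overlapped. *Csrp3* (chr7:48830398-48848033, minus strand) had 28050, 29740 and 27458 normalized counts with vehicle and 26075, 25767 and 30310 with Tributyrin. Its log2 fold change of -0.053 (standard error 0.080) came with a 95% interval of the fold from 0.852 to 1.09. *Fhl1* (chrX:56731787-56793346, plus strand) had 4566, 4968 and 5160 with vehicle and 4771, 4475 and 5234 with Tributyrin, and a 95% interval of the fold from 0.871 to 1.12. For these 2 genes a change of the size seen in *Ankrd1* (a fold of 0.637) therefore lay outside the interval.

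*Fhl2* (chr1:43123074-43196984, minus strand) was the only tested member with a log2 fold change above 0 with all 6 mice. Its normalized counts were 50627, 48414 and 50490 with vehicle and 55224, 43809 and 60256 with Tributyrin. The vehicle mice lay close together (SD 1240), and the Tributyrin mice lay on both sides of them (SD 8428). The log2 fold change was 0.092 (standard error 0.105; 95% interval of the fold 0.907 to 1.25), and without tributyrin replicate 3 it was -0.0039. The share of *Fhl2* in the summed level per length of *Fhl1* and *Fhl2* was 95.2% ± 0.327 in the vehicle mice and 95.5% ± 0.417 in the Tributyrin mice (SD, n = 3, p = 0.2 by an exact permutation test).

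The Xin genes differed from each other in spread. *Xirp1* (chr9:120013755-120023598, minus strand) had 6662, 5944 and 6539 normalized counts with vehicle and 6525, 6357 and 5816 with Tributyrin, which overlap. Its log2 fold change was -0.033 (standard error 0.077, 95% interval of the fold 0.869 to 1.10). *Xirp2* (chr2:67446002-67526614, plus strand) had 14398, 17473 and 14833 with vehicle and 13425, 17121 and 13116 with Tributyrin. In each group replicate 2 was highest and the other mice were close together. The log2 fold change was -0.096 (standard error 0.114, 95% interval of the fold 0.785 to 1.11). *Xirp2* has the longest exonic length of the members, 11979 bases, and *Fhl2* has 1897.

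Values by transcript length differed along with the spread among the Tributyrin mice. The 2053 genes with the shortest exons in sum (at most 2674 bases, mean of at least 100 normalized counts) had a median deviation of -0.064 on the log2 scale in tributyrin replicate 2 and 0.115 in tributyrin replicate 3. The 2052 longest genes (over 8120 bases) were at 0.066 and -0.107 in the same libraries. Relative to its vehicle mean, *Fhl2* was at -0.18 in tributyrin replicate 2 and 0.27 in replicate 3, and *Xirp2* at 0.15 and -0.25. In tributyrin replicate 1 the length groups were near 0 (0.026 for the shortest and -0.0081 for the longest genes), whereas *Fhl2* was at 0.149 and *Xirp2* at -0.21. The part of transcript length in these values was not tested.

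*Rcan1* (chr16:92391953-92470867, minus strand) had 1896, 2321 and 1888 normalized counts with vehicle and 1789, 2114 and 1925 with Tributyrin. The groups overlapped, and the log2 fold change was -0.067 (standard error 0.099, 95% interval of the fold 0.820 to 1.11). The deposited values are per gene, so the transcript from the internal start, the one known to answer calcineurin, cannot be told apart from the transcript of the upstream start. *Myocd* (chr11:65176561-65269989, minus strand) had 1616, 1575 and 1477 with vehicle and 1473, 1610 and 1022 with Tributyrin. Tributyrin replicate 3 was the lowest of all, and without it the log2 fold change of *Myocd* was -0.0085 instead of -0.18 (standard error 0.140 with all mice).

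**Figure D4:**
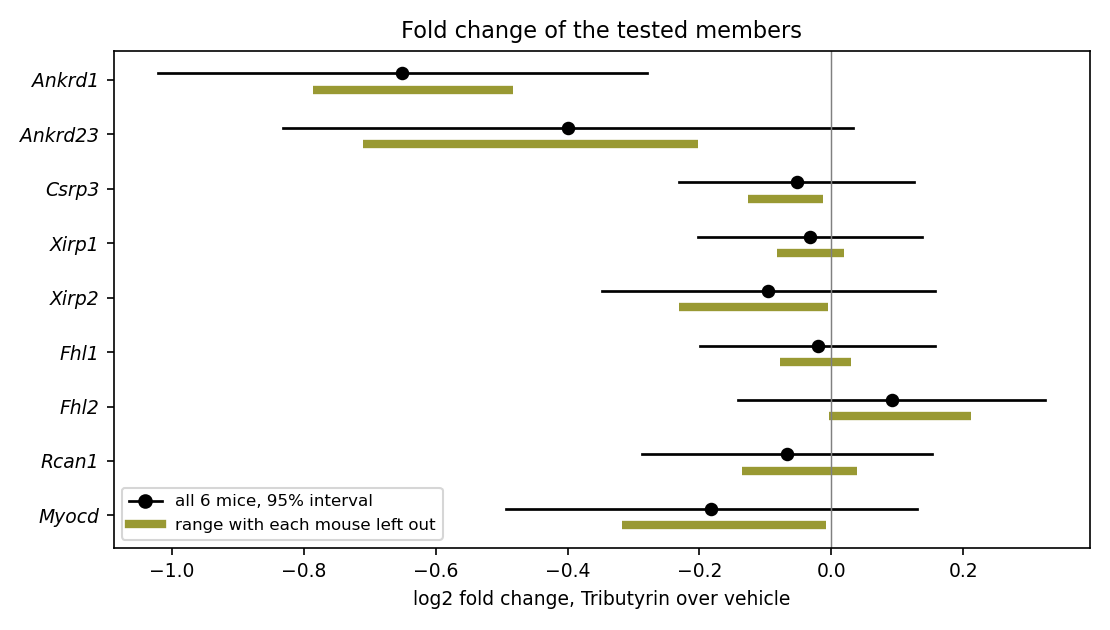
Log2 fold change, Tributyrin over vehicle, of the 9 tested genes. Black points and lines are the estimates from all 6 mice with 95% intervals, and the thick olive lines span the 6 estimates that each leave out 1 mouse. The interval and the span of *Ankrd1* both lie below 0, and the intervals of the other 8 genes include 0.

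Of the 6 mice, tributyrin replicate 2 was the one whose omission changed the number of members with an unadjusted p under 0.05. Without it, 5 of the 9 had an unadjusted p under 0.05 in edgeR's test, *Ankrd1*, *Ankrd23*, *Xirp2*, *Fhl2* and *Myocd*, and 0 passed 10%. The same share over all genes was then 9.56%. In the same 5 genes the groups did not overlap, where 27.2% of all genes tested did not overlap. *Fhl2* was higher with Tributyrin in this fit (log2 fold change 0.21) and *Xirp2* (-0.23), *Myocd* (-0.32) and *Ankrd23* (-0.71) were lower.

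The members did not share a single pattern over the 6 libraries. Of the 36 pairs of tested members, 19 had a Pearson r above 0 and the median r was 0.057. These values are descriptions over 6 libraries that differ in depth and treatment, so r also holds the difference between the groups. Among the members, *Ankrd1* was closest to *Ankrd23* (r = 0.80, n = 6), which had rank 613 among all other genes tested by r to *Ankrd1*. *Ankrd23* was in turn close to *Xirp2* (r = 0.84). *Xirp2* and *Rcan1* followed each other (r = 0.88), and *Fhl2* ran against *Xirp2* (r = -0.90), *Myocd* (r = -0.82) and *Ankrd23* (r = -0.80). Of all other genes tested, the 5 with a profile most like that of *Ankrd1* were *Sstr3*, *Pdzd3*, *Nbl1*, *Jun* and *Akr1c14*, with r from 0.984 to 0.996 over the 6 libraries. They are the highest of the 14133 genes tested. *Jun*, an immediate early transcription factor, was the most abundant of them at 1379 normalized counts. The 5 most like *Fhl2* were *Ranbp3*, *Fzd8*, *Prdx2*, *Rpp14* and *2410004B18Rik*, with r from 0.992 to 0.994.

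The genes around the members were taken from lists for their paralogs, their Z-disc and titin partners, calcineurin and NFAT, SRF and myocardin, YAP and TEAD, and wall stretch. These lists hold 83 different genes, of which 80 were tested, 0 passed 10% and 9 had an unadjusted p under 0.05 in edgeR's test, 4 higher and 5 lower with Tributyrin. This is 11.2% against 4.25% of all genes tested, and the lists were chosen with results of these data known. The median log2 fold change over the lists was -0.014.

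None of the 8 tested paralogs had an unadjusted p under 0.05. *Rcan2*, the paralog of *Rcan1*, was the more abundant of the pair at 131 RPKM, and its log2 fold change was 0.037 (standard error 0.064). *Csrp2* was at 0.35 (0.164), *Csrp1* at 0.15 (0.115), *Fhl3* at 0.037 (0.125), *Fhl4* at -0.17 (0.380), *Rcan3* at -0.15 (0.103), *Mrtfa* at -0.24 (0.116) and *Mrtfb* at -0.053 (0.082), and *Fhl5* was too low to be tested. Of the Z-disc and titin partners, 15 of 16 were tested and 0 had an unadjusted p under 0.05. *Ttn*, which encodes titin, had 113912, 105392 and 126756 normalized counts with vehicle and 78913, 150727 and 90251 with Tributyrin, with tributyrin replicate 2 highest of all. *Tcap*, the short transcript of telethonin, was highest in the list at a log2 fold change of 0.11 (standard error 0.155) and lowest of all libraries in tributyrin replicate 2 (39141). *Synpo2l* was lowest at -0.16 (0.093). The partner *Ilk* had at most 16.2 normalized counts and was not tested.

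Of the calcineurin and NFAT genes, 20 of 21 were tested and 1, *Cabin1*, a calcineurin inhibitor, had an unadjusted p under 0.05 (log2 fold change -0.19, standard error 0.081). Of all genes tested, 2.28% were lower at this p. The catalytic subunit *Ppp3ca* was at -0.014 (0.064), and the list ran from -0.21 for *Akap5* to 0.21 for *Nfatc4*. Of the 13 SRF and myocardin genes, 4 were higher with an unadjusted p under 0.05, against 1.97% of all genes tested. These 4 were *Myh11* (0.59), *Cnn1* (0.71), *Lmod1* (0.63) and *Tpm2* (0.34). All of them encode contractile or actin-binding proteins of smooth muscle, and 3 of the 6 smooth muscle markers are among them. *Myh11* had 1025, 979 and 934 normalized counts with vehicle and 1071, 1915 and 1436 with Tributyrin, and the groups did not overlap. *Srf* itself was at -0.084 (standard error 0.071). *Acta1*, skeletal actin, was the lowest at -1.20 (0.550), with 30672 normalized counts in vehicle replicate 2 and 2476 to 12524 in the other mice. The summed level of the smooth muscle markers ran from 253 to 307 CPM with vehicle and from 238 to 358 CPM with Tributyrin, and its part in these values was not tested.

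Of the 16 YAP and TEAD genes, 0 were higher and 2 were lower with an unadjusted p under 0.05, the YAP target *Ccn1* (-0.26, standard error 0.082) and *Tead4* (-0.43, 0.185). Of all genes tested, 1.97% were higher and 2.28% lower at this p. *Ccn1* had 927, 1091 and 984 normalized counts with vehicle and 814, 850 and 852 with Tributyrin, without overlap. *Tead1*, at -0.19 (0.112), was the most abundant of the TEAD genes, and *Yap1* was at 0.020 (0.077). The list ran from *Vgll2* at -1.05 (0.475), with at most 21.1 normalized counts, to *Vgll3* at 0.27 (0.188).

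Of the 9 wall stretch and load markers, 8 had a log2 fold change below 0 and 1 above 0, against 49.6% of all genes above 0, and the median was -0.53. Lower with an unadjusted p under 0.05 were 2 of the 9, *Nppb* and *Gdf15*, against 2.28% of all genes. *Nppb*, which encodes B-type natriuretic peptide, had 1776, 2317 and 1665 normalized counts with vehicle and 431, 1158 and 1293 with Tributyrin, without overlap, and a log2 fold change of -1.004 (standard error 0.309, unadjusted p 0.00837, adjusted p 0.999 in edgeR's test). *Gdf15* was at -0.96 (0.379), *Nppa*, which is also an atrial marker, at -0.53 (0.333), and *Il1rl1*, the highest, at 0.16 (0.323). The list also holds the matrix genes *Postn* (-0.53) and *Tnc* (-0.93). Beside these values the 6 tested atrial markers had a median of -1.90. Of 6 fibroblast markers 2 were lower at an unadjusted p under 0.05, against 2.28% of all genes, *Col1a1* (-0.46) and *Lum* (-0.31, without overlap). The others were *Col1a2* (-0.30), *Pdgfra* (-0.0074), *Dcn* (0.0051) and *Tcf21* (0.067). The summed fibroblast level ran from 743 to 799 CPM with vehicle and from 670 to 808 CPM with Tributyrin. The part of these cell types in the load markers was not tested. Tributyrin replicate 1 had the lowest value of all 6 mice for *Ankrd1*, *Ankrd23*, *Nppb*, *Nppa* and *Acta1*.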

How the data were processed

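Stranded mRNA libraries of heart ventricle, read from a single end, were made from 3 mice per group, and mice were grouped by their labels. The authors deposited raw counts of reads per Ensembl gene, without normalization. Per the labels' processing notes and the methods, adapters were trimmed (cutadapt 1.13), reads of poor quality or from rRNA were removed, and the rest were aligned with STAR to mm10 and counted with htseq-count (HTSeq 0.6.1p1). The notes also name DESeq2 1.14.1. For STAR no version is given in the sources used here, nor is the annotation release or the strand setting. The files held 0 lines without a gene.

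Names, positions and exonic lengths came from GENCODE M21 (GRCm38), to which 54165 of 54232 identifiers matched, and promoter windows from RefSeq (GRCm38.p6). The comparison used edgeR 4.0.16 in R 4.3.3 (quasi-likelihood test, TMM scaling, filterByExpr with minimum count 10 and minimum total 15, Benjamini-Hochberg adjustment, no covariate). Normalized counts are counts divided by DESeq2 1.42.0 size factors, log2 CPM used a pseudocount of 0.5, and CPM and RPKM used TMM-scaled totals. Intervals are at 95%. The alternatives were other scalings, filters and models (DESeq2, limma 3.58.1), a replicate block, and fits that each leave out 1 mouse. No pair of libraries agreed within sampling noise (chi-square per degree of freedom 6.67 to 28.2). The edgeR step was also run on counts simulated from the means and dispersions of these data. That run checks the step alone and does not test the results above. The methods of the study set an FDR of 5% and its results 10%.

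The members and lists were chosen with earlier results of these data known. All 10 members are given in full. From each list the genes with an unadjusted p under 0.05, the extremes and a few named regulators are given, and the untested *Ilk* was named after its values were seen.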

Additional observations from a re-analysis of the deposited data

How the results depend on the processing

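The log2 fold change of *Ankrd1* was below 0 with an unadjusted p under 0.05 in all 16 alternatives, from -0.79 to -0.48, with adjusted p from 8.81e-12 to 0.9999. The number of members past an FDR of 10% was 2 with no filter on low counts (*Ankrd1*, adjusted p 8.81e-12, and *Ankrd23*, 0.0471; the prior of the model then had infinite degrees of freedom against 6.31, and 0.653% of all genes were called), 1 with the replicate block and 0 in the other 14. The number with an unadjusted p under 0.05 was 2 with library size alone, no filter, DESeq2, limma-voom and the replicate block, and ran from 1 to 5 with each mouse left out. The number whose groups did not overlap ran from 1 to 5 with each mouse left out (2 without tributyrin replicate 3, where 18.4% of all genes did not overlap, and 5 without tributyrin replicate 2, where 27.2% did not) and was 2 with vehicle replicates 1 and 2 left out, where 46.3% did not. With each mouse left out, values changed sign for *Xirp1* (-0.082 to 0.019), *Rcan1* (-0.13 to 0.038), *Fhl1* (-0.078 to 0.030) and *Fhl2* (-0.0039 to 0.21), and *Rcan1* was at 0.038 with vehicle replicates 1 and 2 left out. The causes were not tested. The median of the members ran from -0.14 to -0.020 over the alternatives.

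Samples with the same replicate number deviated together with correlations of 0.27, 0.062 and 0.0016, and 3 of 6 samples correlated best with their own number, so the numbers are not shown to pair the mice. With the replicate block *Ankrd1* was at -0.65 with an adjusted p of 0.0667 in edgeR's test, the genes of the lists with an unadjusted p under 0.05 numbered 13 instead of 9, and 2 genes of all tested passed 10%. With 3 mice per group the exact test of a single gene cannot go below 0.1, and depth limits *Ankrd2* alone among the members.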
